A study of Mus musculus with 21 samples.

Results

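The cytosolic ribosomal protein genes were described across the cerebral cortex of 21 mice, 1 Affymetrix MOE430A 2.0 array for each mouse. A gene was taken as a member when a probe set, a group of short probes read as 1 value, named that gene alone and its symbol was of the Rpl, Rps, Rplp or Rpsa kind, without ribosomal S6 kinases or mitochondrial ribosomal proteins. There were 45 members, 24 of the large and 21 of the small subunit, among 12393 genes measured. They were read by 96 single-symbol probe sets, of which the brightest on average stood for each gene. Of 76 subunit genes looked up by name, 41 were members and 27 were read only through probe sets that name several genes, in most cases pseudogenes. The other 8 were not analysed here.

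The mice carried doxycycline-controlled human TDP-43 transgenes. TDP-43 is a mainly nuclear protein that binds RNA, and the mice were compared to see how TDP-43 held out of the nucleus alters expression. The 5 dNLS bigenic mice of line NLS4 (4 males, 1 female) carried both TDP-43 with a defective nuclear localization signal and tTA, the transactivator that switches it on. The 4 dNLS monogenic mice of the same line (3 males, 1 female) carried the TDP-43 transgene without tTA. The 4 WT bigenic mice of line WT12 (1 male, 3 females) carried wild-type TDP-43 and tTA. The 8 nontransgenic mice carried neither, 6 from line NLS4 (4 males, 2 females by label) and 2 females from line WT12. All were of a mixed C57BL/6J x C3HeJ background and had been off the doxycycline diet for 2 weeks. Their age is not given in the labels. In the published lines tTA is driven by the Camk2a promoter, which is active in forebrain excitatory neurons, whereas the arrays read all cells of the cortex. No group carried tTA alone, and each bigenic group came from 1 line. Differences between bigenic groups therefore cannot be told apart from differences between lines.

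A ribosome is built from RNA and from a single copy of most ribosomal proteins. Its protein genes are expressed in all cells, mostly at high levels, though the level can differ between cell types. Their messages are short, and many begin with a run of pyrimidines, the 5′ terminal oligopyrimidine (TOP) tract, through which mTOR and Larp1 control their translation. Neurons make ribosomes throughout life, and several ribosomal proteins have further roles, such as the binding of Mdm2, a regulator of p53, by Rpl5, Rpl11 and Rpl23 when assembly is disturbed.

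The start regions of the members were searched for such a run. RefSeq start regions (build GRCm38.p6) were given for 39 of 45 members, in 47 windows running from 250 bases before to 50 after the start. A tract was searched on the coding strand as a C followed by 4 or more C or T, beginning within 20 bases of the start. It was found in 35 of 47 member windows (74.5%) and in 15594 of all 32851 windows (47.5%). It began exactly at the annotated start in 8 of the 47 member windows and in 823 of all windows (2.51%). The motif CGGAAG, on either strand anywhere in the window, was found in 61.7% of member windows and 16.9% of all windows. On the reverse strand this motif can overlap the tract, since it then reads CTTCCG. The sequences below give 40 bases before and 20 after the start, with the tract in capitals. They are shown for 6 members that were higher in dNLS bigenic than in nontransgenic cortex (Rpl14, Rplp0, Rpl7a, Rplp2, Rpl35 and Rps26) and for 2 that did not pass the test (Rpl38 and Rps6). Rpsa and Rpl27, which were also higher, are shown as members in which no tract was found, and so have no capitals.
Rpl14, chr9:120571477-120571536, plus strand: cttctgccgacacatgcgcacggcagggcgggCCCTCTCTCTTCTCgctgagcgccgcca
Rplp0, chr5:115559427-115559486, plus strand: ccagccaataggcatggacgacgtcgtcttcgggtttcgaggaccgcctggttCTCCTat
Rpl7a, chr2:26910767-26910826, plus strand: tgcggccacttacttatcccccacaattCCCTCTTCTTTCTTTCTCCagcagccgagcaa
Rplp2, chr7:141447611-141447670, plus strand: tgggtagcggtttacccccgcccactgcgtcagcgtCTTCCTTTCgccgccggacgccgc
Rpl35, chr2:39005112-39005171, minus strand: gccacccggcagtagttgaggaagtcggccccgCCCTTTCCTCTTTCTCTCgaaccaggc
Rps26, chr10:128626487-128626546, minus strand: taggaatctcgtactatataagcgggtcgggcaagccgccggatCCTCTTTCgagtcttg
Rpl38, chr11:114668540-114668599, plus strand: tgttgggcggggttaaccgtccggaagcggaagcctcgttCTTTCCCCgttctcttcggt
Rps6, chr4:86857348-86857407, minus strand: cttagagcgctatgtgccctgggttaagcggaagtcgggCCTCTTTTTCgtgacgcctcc
Rpsa, chr9:120127726-120127785, plus strand: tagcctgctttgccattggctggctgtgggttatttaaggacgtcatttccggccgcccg
Rpl27, chr11:101442205-101442264, plus strand: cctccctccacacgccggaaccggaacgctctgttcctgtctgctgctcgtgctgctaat

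Members that rose and members that did not both held the tract. It was present in 84.0% of the 25 windows of members that were higher in dNLS bigenic than in nontransgenic mice, and in 63.6% of the 22 windows of the others. Rpl38 and Rps6, whose tracts begin at the start itself or 1 base before it, are among the others, and in Rplp0 the run begins 13 bases after the first base. These are counts of letters and no test was made on them.

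Levels are deposited log2 values, with a common lowest value of 2.04. Of the 45 members, 34 had a mean of 12 or more, 18 of the large and 16 of the small subunit, and a further 1110 genes outside the rule were as bright. The 3 brightest were Rpl41, Rpl38 and Rpl35. Another 6 were read below 12 (Rps4l, Rpl12, Rpl14, Rps6, Rps25 and Rps27l), of which Rps4l and Rps27l are tissue-restricted or stress-linked paralogs. The last 5 were at or near the lowest value on every array (Rpl3l, Rpl39l, Rpl37, Rpl39 and Rps27). Rpl3l and Rpl39l are known from muscle and testis, but Rpl37, Rpl39 and Rps27 are general subunits. Their bright probe sets name several genes, and the brightest averaged 14.03 for Rpl37, 13.67 for Rpl39 and 14.15 for Rps27. On these Rpl37 (-0.02), Rpl39 (-0.10) and Rps27 (0.08) did not pass between dNLS bigenic and nontransgenic mice (adjusted p = 0.947, 0.0764 and 0.257). A low value of a member thus need not mean a low message, and from here on mean level stands for the brightness of a probe set, not for the amount of a message.

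Of the 45 members, 24 were higher in dNLS bigenic than in nontransgenic cortex, 16 than in dNLS monogenic and 7 than in WT bigenic cortex, by the tests given below with the shares over all genes. The array means over the 18 bright large-subunit members were 13.74 to 13.81 in dNLS bigenic, 13.52 to 13.57 in dNLS monogenic, 13.58 to 13.67 in WT bigenic and 13.30 to 13.59 in nontransgenic mice. For the 16 bright small-subunit members they were 13.49 to 13.55 in dNLS bigenic, 13.32 to 13.38 in dNLS monogenic, 13.40 to 13.46 in WT bigenic and 13.05 to 13.40 in nontransgenic mice. In both subunits every dNLS bigenic array lay above every other array. The mean of the other genes of mean level 12 or more did not lie above the others in dNLS bigenic mice. It was 12.68 ± 0.02 in the 5 dNLS bigenic arrays, against 12.73 ± 0.004 in the 4 dNLS monogenic, 12.70 ± 0.01 in the 4 WT bigenic and 12.71 ± 0.04 in the 8 nontransgenic arrays (SD). These array means are descriptions and carry no test.

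**Figure D1:**
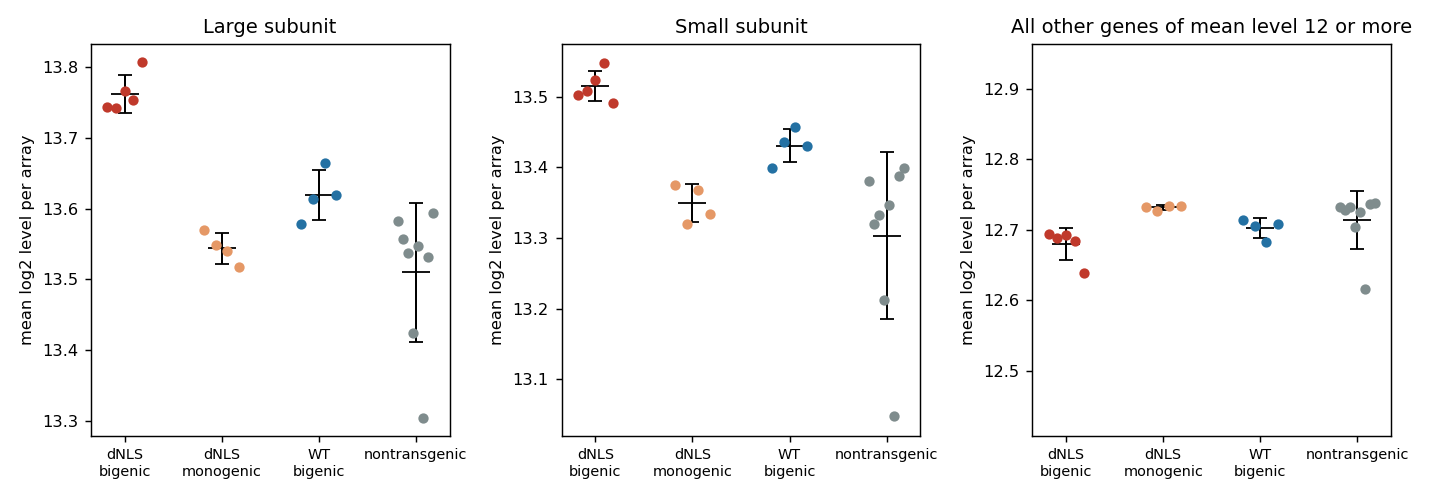
Mean log2 level per array over the 18 bright large-subunit members, the 16 bright small-subunit members and the 1110 other genes of mean level 12 or more, by group, with equal spans on the 3 vertical axes. Points are arrays, bars are the group mean and SD, and the 5 dNLS bigenic arrays lie above all others in the first 2 panels only.

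Nontransgenic 6, and less so nontransgenic 4, had the lowest subunit means. Their beta-actin control probe sets read 8.20 and 4.70 log2 units higher at the 3′ than at the 5′ end, a difference that grows with RNA breakdown or short amplification products. This difference averaged 1.75 ± 0.35 in dNLS bigenic mice, 2.00 ± 0.76 in dNLS monogenic mice, 1.39 ± 0.03 in WT bigenic mice and 3.18 ± 2.31 in nontransgenic mice (SD, group sizes as above). No comparison of groups passed a two-sided exact permutation test on it (adjusted p = 0.288 to 0.619). The RIN, a score of RNA integrity, was 7 or more for every sample per the labels. Nontransgenic 1 was labelled male, yet Xist, which is transcribed from an inactive X, read 11.97 on it and the Y-linked Eif2s3y was at the lowest value. Marker lists of cell types are given as mean levels, with the range over arrays for some groups. Cortical layer markers (6 genes) averaged 8.31 (8.16 to 8.40) in dNLS bigenic mice. They averaged 8.62 (8.57 to 8.68) in dNLS monogenic mice, 8.63 (8.47 to 8.73) in WT bigenic mice and 8.61 (8.42 to 8.84) in nontransgenic mice. In these layer markers every dNLS bigenic array thus lay below every other array. Microglial markers (6 genes) averaged 8.45 (7.97 to 8.78) in dNLS bigenic mice, against 8.99 in dNLS monogenic mice, 9.49 in WT bigenic mice and 8.85 (8.02 to 9.42) in nontransgenic mice. Astrocyte markers (6 genes) averaged 11.48 (11.32 to 11.66) in dNLS bigenic mice, against 11.69 in dNLS monogenic mice, 11.97 (11.79 to 12.33) in WT bigenic mice and 11.68 in nontransgenic mice. Striatal markers (2 genes) averaged 6.28 (4.70 to 8.92) in dNLS bigenic mice, against 7.62 (5.55 to 9.20) in dNLS monogenic mice, 7.79 (7.07 to 9.001) in WT bigenic mice and 6.55 (5.54 to 9.27) in nontransgenic mice. Choroid plexus markers (3 genes) averaged 6.59 (5.40 to 7.39) in dNLS bigenic mice, against 6.35 (5.33 to 9.18) in dNLS monogenic mice, 5.83 (5.16 to 6.95) in WT bigenic mice and 5.60 (4.89 to 6.26) in nontransgenic mice. Striatal and choroid plexus ranges overlapped between all groups. Microglial and astrocyte ranges of dNLS bigenic mice overlapped those of dNLS monogenic and nontransgenic mice but not those of WT bigenic mice. Between dNLS bigenic and nontransgenic mice, 2 of 6 neuronal, 2 of 6 layer, 1 of 6 astrocyte, 1 of 6 microglial and 1 of 5 oligodendrocyte markers fell and 1 neuronal marker rose, where 11.5% of all genes fell and 10.8% rose. None of the 4 endothelial, 3 choroid plexus, 2 striatal and 2 blood genes passed. Neuronal markers averaged 12.28 in dNLS bigenic mice, against 12.46 in dNLS monogenic mice, 12.37 in WT bigenic mice and 12.33 in nontransgenic mice. Over all 4 groups the averages were 11.99 to 12.04 for oligodendrocytes and 6.22 to 6.39 for endothelium. The 2 blood genes were at or near the lowest value in all groups. The part of any of these in the members' values was not tested. In whole tissue a different mix of cells and a different amount of message per cell cannot be told apart.

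Set against nontransgenic mice, dNLS bigenic mice had 24 of 45 members higher and 1 lower, by limma with sex as a covariate and Benjamini-Hochberg adjustment over all 12393 genes. Of all genes 22.3% were called, 10.8% as higher and 11.5% as lower. The large subunit had 15 higher and 0 lower of 24, and the small subunit 9 higher and 1 lower of 21. The median log2 change was 0.18 over all members, 0.20 over the large and 0.10 over the small subunit, against 0 over all genes. Among members of mean level 12 or more, 22 of 34 were higher and 1 lower with a median of 0.22, whereas 12.5% of other genes this bright were higher and 29.1% lower, with a median of -0.05. Arrays of both groups did not overlap for 20 members, all higher, which held for 6.78% of all genes, while 5.68% were lower without overlap. Without nontransgenic 4 and 6 the count was 24 higher and 2 lower (Rps24 and Rps29), 23 of the 24 being the same genes. With arrays centred on their median over all probe sets the split was 17 higher and 3 lower, in place of 24 and 1. Shares over all genes in these alternative fits are not given here.

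**Figure D2:**
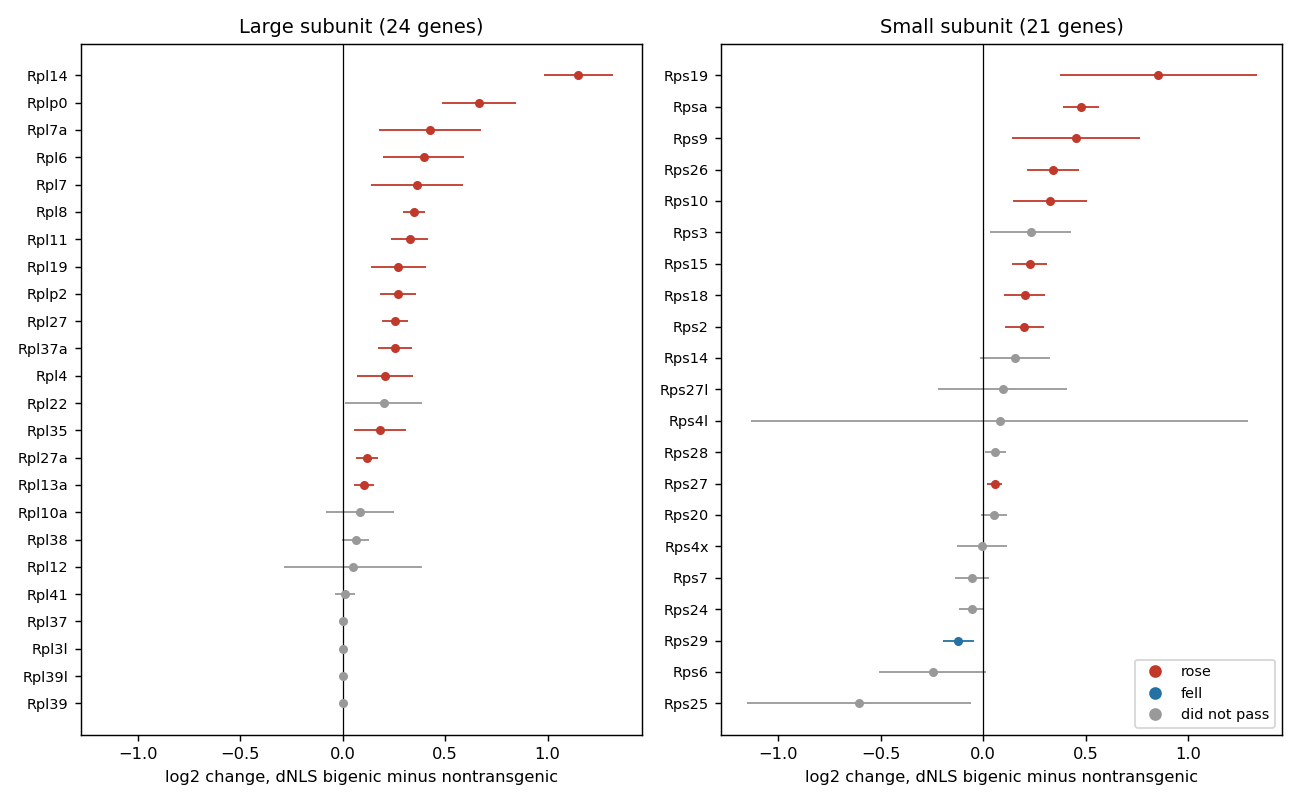
Log2 change of each of the 45 members, dNLS bigenic minus nontransgenic, with the 95% confidence interval of the linear model, large subunit left and small subunit right. Red points rose, the blue point fell and grey points did not pass the adjusted test, and the changes run from -0.61 (Rps25) to 1.15 (Rpl14).

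In the large subunit, the stalk proteins recruit elongation factors. Rplp0, the stalk base, read 13.08, 13.17, 13.15, 13.12 and 13.34 in dNLS bigenic mice, against a lowest of 12.10, a median of 12.51 and a highest of 12.73 in nontransgenic mice. All 5 dNLS bigenic arrays lay above all others, and Rplp0 rose by 0.66 ± 0.09 (log2, SE), or 1.58-fold (adjusted p = 2.32e-05). Rplp2, which pairs with Rplp1 on this base, read 14.23 to 14.31 in dNLS bigenic mice, against 13.86 to 14.10 in nontransgenic mice, again without overlap. Rplp2 rose by 0.27 ± 0.04 (adjusted p = 1.45e-04). The single-symbol probe set of Rpl12, which binds beside them, averaged 6.08 and did not pass, at 0.05 ± 0.16. Its bright sets, which name several genes, averaged 13.36 and 13.01 and rose by 0.33 (adjusted p = 4.90e-04) and 0.61 (adjusted p = 0.00266).

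Rpl14, a protein of the large subunit, had the largest change of all members. Its probe set read 8.80, 8.90, 8.99, 9.23 and 8.76 in dNLS bigenic mice, against a lowest of 7.65, a median of 7.79 and a highest of 7.93 in nontransgenic mice. It was higher by 1.15 ± 0.08, or 2.22-fold (adjusted p = 3.71e-08), with no overlap. This probe set is over 4 log2 units dimmer than the 5 probe sets that name Rpl14 together with other genes, which averaged 13.17 to 13.83. On those the change was smaller, from 0.45 to 0.75, and all 5 passed over all probe sets (adjusted p = 3.06e-04 to 0.0422). The size of the Rpl14 change therefore depends on the probe set read.

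Rpl11 enters the large subunit with Rpl5 and the 5S RNA and can bind Mdm2. It read 13.66, 13.66, 13.70, 13.70 and 13.66 in dNLS bigenic mice, against 13.14 at the lowest, 13.37 at the median and 13.47 at the highest in nontransgenic mice. The dNLS bigenic arrays had an SD of 0.02 and lay above all others, and the rise was 0.33 ± 0.04 (adjusted p = 3.22e-05). Rpl8, which contacts the peptidyl transferase centre, read 12.83 to 12.90 in dNLS bigenic mice, against 12.39 to 12.54 in nontransgenic mice. The groups did not overlap, and it rose by 0.35 ± 0.02 (adjusted p = 4.48e-08). Rpl27, another subunit protein, read 13.49 to 13.61 in dNLS bigenic mice, against 13.17 to 13.41 in nontransgenic mice, and rose by 0.26 ± 0.03 without overlap (adjusted p = 1.11e-05).

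Of 4 members that line or surround the exit tunnel for new peptides, 3 rose, where 24 of 45 members and 10.8% of all genes did. The other, Rpl39, was at the lowest value. Rpl19 was higher by 0.27 (adjusted p = 0.00482), Rpl4 by 0.21 (adjusted p = 0.0306) and Rpl35 by 0.18 (adjusted p = 0.0364). The calls of Rpl35 and Rpl4 were the less firm. Rpl35 read 14.23 to 14.45 in dNLS bigenic mice, against 13.89 to 14.27 in nontransgenic mice, with overlap. Its call was lost when nontransgenic 4 (adjusted p = 0.0769), nontransgenic 2 (adjusted p = 0.052), dNLS bigenic 3 (adjusted p = 0.0902) or dNLS bigenic 5 (adjusted p = 0.188) was left out. The Rpl4 call was lost when dNLS bigenic 1, 3 or 5 or nontransgenic 4 was left out, although its groups did not overlap. Rpl7a read 14.10 to 14.14 in dNLS bigenic mice, against 13.07 to 13.93 in nontransgenic mice, and rose by 0.43 ± 0.12 (adjusted p = 0.014). Its lowest arrays were nontransgenic 6 and 4, and without both the change was 0.29. With only the 2 groups compared in the fit, the Rpl7a call was lost (0.42, adjusted p = 0.0827). Rpl6 (0.39), Rpl7 (0.36), Rpl37a (0.25), Rpl27a (0.12) and Rpl13a (0.10) are the other large-subunit genes that rose. The Rpl7 call was lost without dNLS bigenic 5. Rpl22 (0.20), Rpl10a (0.09), Rpl38 (0.06) and Rpl41 (0.01) did not pass, nor did the 4 at the lowest value. Rpl38 and Rpl41, like Rpl35, are among the brightest probe sets, where a difference may be compressed, and Rpl41 ranged only from 14.29 to 14.43 over all 21 arrays.

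**Figure D3:**
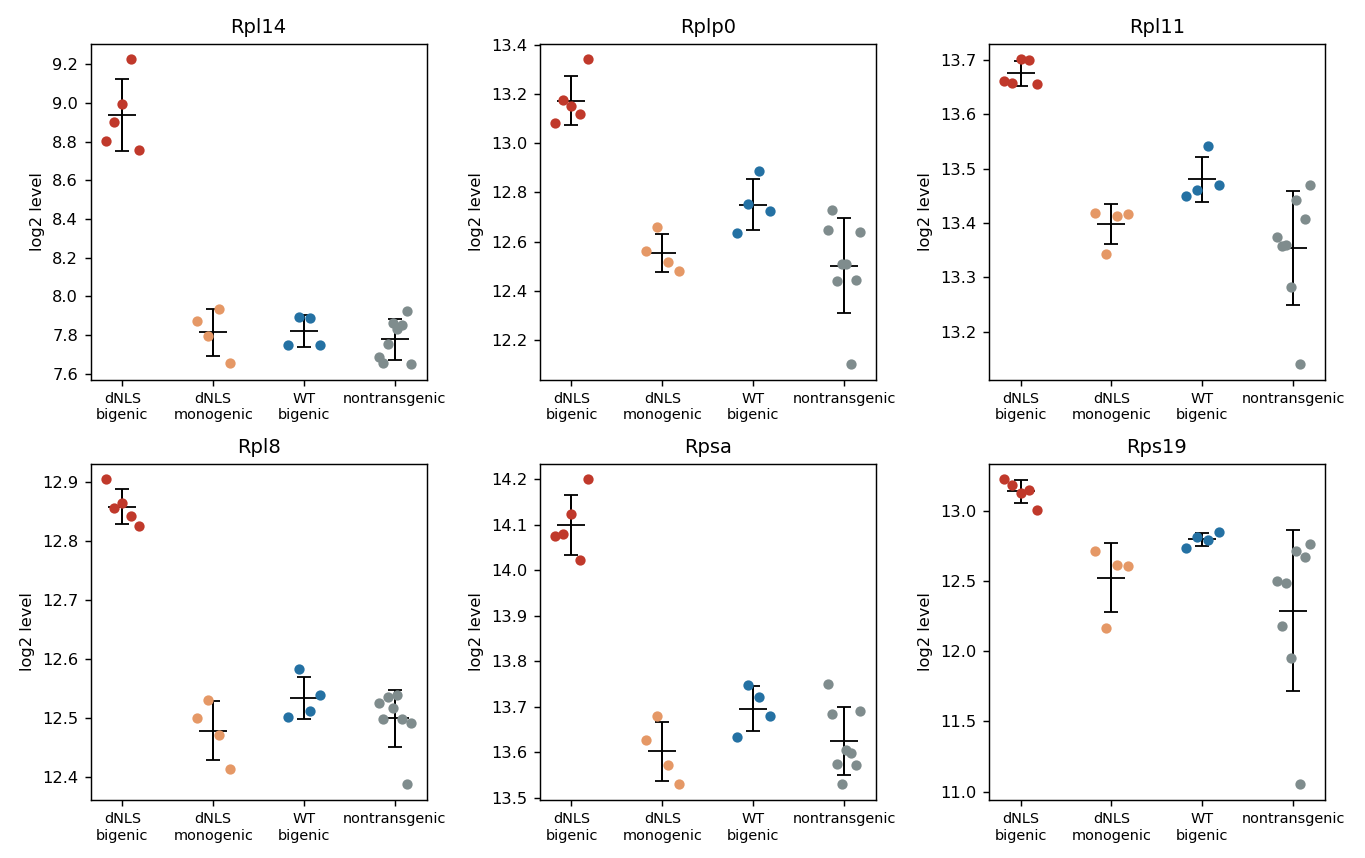
Log2 level per array of 6 members, by group, each panel with its own vertical axis. Points are arrays and bars the group mean and SD, and in all 6 panels the 5 dNLS bigenic arrays lie above the other 16.

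In the small subunit, Rpsa, which sits at the exit for messenger RNA and is also known as a laminin receptor, showed the firmest change. It read 14.08, 14.08, 14.12, 14.02 and 14.20 in dNLS bigenic mice, against 13.53 at the lowest, 13.60 at the median and 13.75 at the highest in nontransgenic mice. The rise was 0.48 ± 0.04, or 1.39-fold (adjusted p = 3.41e-07), and no array overlapped. Rps26, its neighbour at this exit, read 12.35, 12.61, 12.48, 12.58 and 12.69, against 12.08 to 12.41 in nontransgenic mice, and rose by 0.34 ± 0.06 with overlap (adjusted p = 4.70e-04). Rps14 (0.16) and Rps28 (0.06) of this region did not pass. At the entry side Rps2 rose by 0.20 (adjusted p = 0.00346). Its value was exactly 13.0066 on dNLS monogenic 1, 3 and 4, nontransgenic 1, 2, 6 and 8 and WT bigenic 1, 2 and 3. Such ties bear on the spread used in its test, and their source was not tested. Rps3, a DNA repair protein besides, was at 0.23 without passing (adjusted p = 0.0926), although its groups did not overlap.

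Rps19, the gene most often mutated in human Diamond-Blackfan anaemia, read 13.23, 13.19, 13.13, 13.15 and 13.01 in dNLS bigenic mice, against 11.05 at the lowest, 12.49 at the median and 12.77 at the highest in nontransgenic mice. It rose by 0.85 ± 0.23 (adjusted p = 0.011), the largest change in the small subunit, and the groups did not overlap. The size leaned on 2 arrays, nontransgenic 6 at 11.05 and nontransgenic 4 at 11.95. Without both it was 0.63 ± 0.10 (adjusted p = 2.21e-04), and with the beta-actin difference as a covariate 0.50 ± 0.04 (adjusted p = 8.68e-08). With only the 2 groups compared in the fit, the Rps19 call was lost (0.84 ± 0.28, adjusted p = 0.0677). Rps9, which bears on decoding accuracy, showed the same 2 arrays lowest, at 12.13 and 12.62, with 13.31 to 13.41 in dNLS bigenic mice, and rose by 0.45 ± 0.15 (adjusted p = 0.0366). Its change was 0.29 without both arrays, and a second bright probe set of Rps9 read -0.04. The call for Rps9 was also lost when nontransgenic 2 or 4, or any 1 of the 5 dNLS bigenic mice, was left out (adjusted p = 0.055 to 0.0911).

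Of 8 members linked to that anaemia in human, Rpl11, Rps19, Rps26 and Rps10 (0.33) rose, Rps29 fell, and Rps7, Rps24 and Rps28 did not pass. This is near the share over all members, of which 24 of 45 rose, while 10.8% of all genes did. Rps15 (0.23) and Rps18 (0.20), of the head of the small subunit, rose too. Rps27 was counted higher by 0.06 (adjusted p = 0.0288), but its values of 2.08 to 2.23 in dNLS bigenic and 2.08 in nontransgenic mice lie near the lowest value. That call was lost without dNLS bigenic 1 or 3, or without nontransgenic 1, 2 or 4. Its bright shared probe set changed by 0.08 without passing (adjusted p = 0.257).

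Rps29 was the one member that fell, and only slightly. It read 14.02, 14.01, 14.02, 14.01 and 13.81 in dNLS bigenic mice, against 14.01 to 14.20 in nontransgenic mice, a change of -0.12 ± 0.04 (adjusted p = 0.0181). The call was lost without dNLS bigenic 5 (-0.07, adjusted p = 0.132) and with the mean of its 3 probe sets (-0.02, adjusted p = 1). Rps24 (-0.06), Rps7 (-0.06) and Rps4x (-0.01), the last X-linked, were bright and did not pass. Rps6, the substrate of S6 kinase, read 7.95 to 8.41 in dNLS bigenic mice, against 8.18 to 9.14 in nontransgenic mice, at -0.25 ± 0.12 (adjusted p = 0.188). Its brightest shared probe set changed by 0.03 (adjusted p = 0.70). Rps25 had the lowest estimate, at -0.61 ± 0.26 (adjusted p = 0.113), on a probe set that averaged 8.62, while its bright shared probe set rose by 0.20 ± 0.02 (adjusted p = 1.10e-05). Rps20 (0.05), Rps27l (0.10) and Rps4l (0.08) did not pass.

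**Figure D4:**
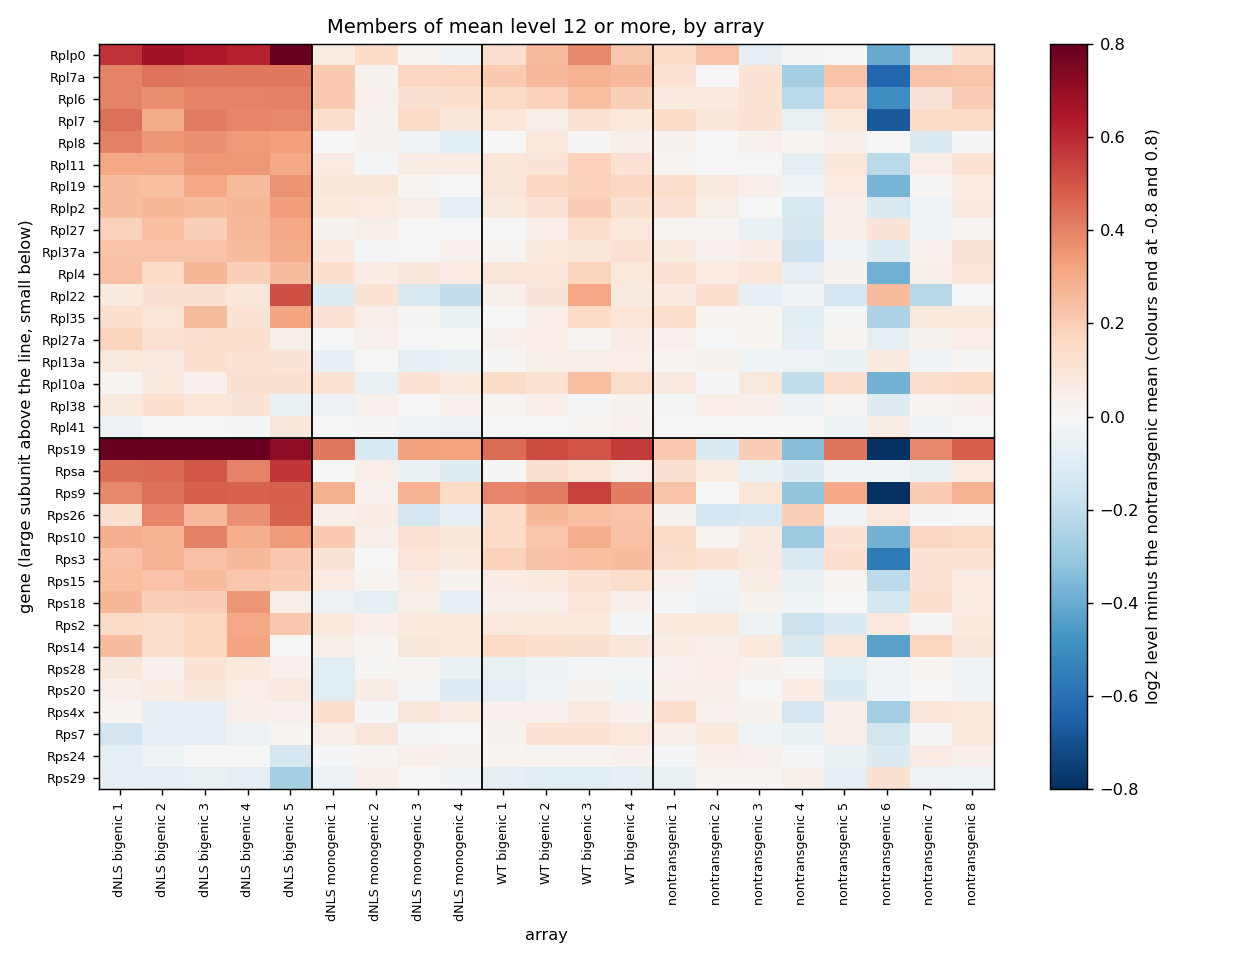
Log2 level of the 34 bright members on each of the 21 arrays, minus the gene's nontransgenic mean, with red above and blue below it and colours ending at -0.8 and 0.8. The 5 dNLS bigenic columns are red for most genes, nontransgenic 6 and 4 are blue for many of them, and Rps29, Rps24, Rps7 and Rps4x at the bottom show little red.

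The probe sets that name several genes gave a second reading of the subunits. Sets of mean level 12 or more that held exactly 1 functional ribosomal protein gene numbered 74, of which 48 rose and 0 fell in dNLS bigenic against nontransgenic mice, beside 40 and 1 of the 62 single-symbol sets this bright. The 27 genes read only in this way all had positive changes, with a median of 0.21, and 16 passed. In the fit by gene, 10.8% of all genes were higher and 11.5% lower. Among other genes of mean level 12 or more, 12.5% were higher and 29.1% lower. The share over all probe sets is not given here. Rpl36 rose by 0.50 (adjusted p = 8.64e-07), Rplp1, the partner of Rplp2, by 0.51 (adjusted p = 0.00529) and Rpl15 by 0.43 (adjusted p = 0.00413). Rpl5, the partner of Rpl11, was at 0.20 without passing (adjusted p = 0.0703). Such sets share sequence with pseudogenes, so reads of gene and copy cannot be told apart. Probe sets of 1 gene did not always move alike: a dimmer set of Rpl15, of mean level 11.76, fell by 0.46 (adjusted p = 1.27e-04), and a set of Rpl30 near the lowest value, at 3.04, fell by 0.56 (adjusted p = 0.0125).

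The changes were smaller in brighter probe sets. Across the 34 bright members Spearman's rho between mean level and change was -0.36, and -0.45 across 68 genes when shared sets were included. The points share all 21 arrays, so this is a description.

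**Figure D5:**
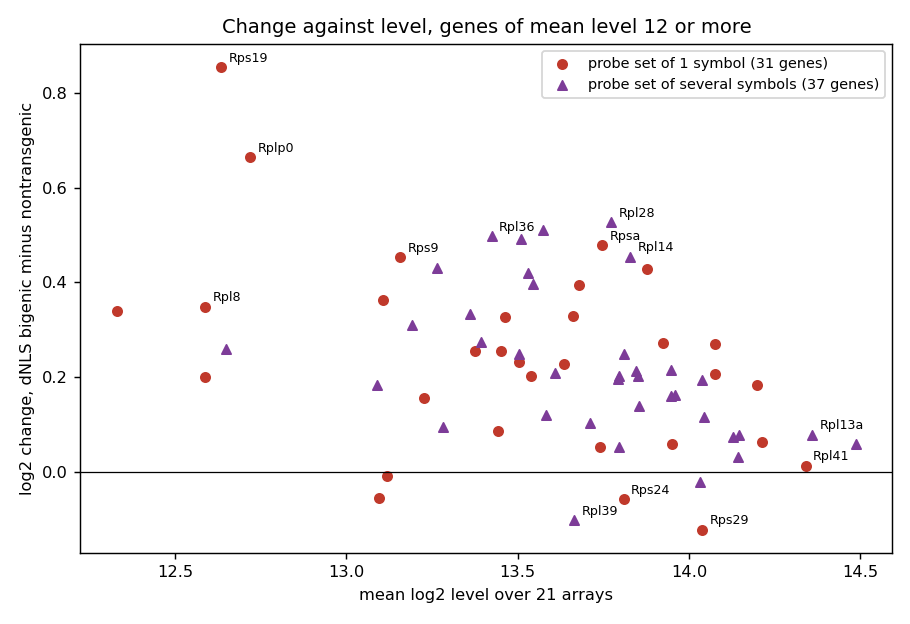
Log2 change, dNLS bigenic minus nontransgenic, against mean log2 level over 21 arrays for the 68 ribosomal protein genes of mean level 12 or more, each read by its brightest probe set. Circles are probe sets of 1 symbol (31 genes) and triangles probe sets of several (37 genes), and changes above 0.6 occur only below a level of 13.

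The direct comparison of both bigenic groups holds tTA on both sides. It tests whether the groups differ, and a difference between transgenes cannot be told apart from a difference between lines. dNLS bigenic mice had 7 of 45 members higher and 0 lower than WT bigenic mice, where 10.8% of all genes were called, 6.24% as higher and 4.53% as lower. Among the other genes of mean level 12 or more, 6.58% were higher and 11.5% lower, beside 6 and 0 of the 34 members this bright. The 7 were Rpl14 (1.101), Rpsa (0.41), Rplp0 (0.41), Rpl8 (0.31), Rpl11 (0.20), Rpl27 (0.20) and Rpl37a (0.18). Rpsa read 14.02 to 14.20 in dNLS bigenic and 13.63 to 13.75 in WT bigenic mice (adjusted p = 4.3e-05), and Rpl8 12.83 to 12.90 and 12.50 to 12.58 (adjusted p = 6e-06). Rplp0 averaged 13.17 ± 0.10 (SD, n = 5) in dNLS bigenic and 12.75 ± 0.10 (n = 4) in WT bigenic mice (adjusted p = 0.0163), and Rpl11 13.68 ± 0.02 and 13.48 ± 0.04 (adjusted p = 0.0182). The Rplp0 call was lost without dNLS bigenic 5 (adjusted p = 0.0922) or WT bigenic 1 (adjusted p = 0.127). The Rpl11 call was lost without WT bigenic 1 (adjusted p = 0.0891) and with arrays centred on their medians (adjusted p = 0.243), and that of Rpl37a without either of these mice and with centred arrays. Without WT bigenic 1 the number of members past the threshold was 4. On the brightest shared probe set of Rpl14 the difference was 0.23 (adjusted p = 0.251). Arrays of both groups did not overlap for 18 members that were higher (12.5% of all genes) and 2 that were lower, Rps7 and Rps24 (9.99%). When nontransgenic 4 and 6, which belong to neither group, were left out of the common estimate of spread, 16 members were higher, among them Rps19 (0.42), Rpl7a and Rplp2, and Rps7 was lower. The share over all genes in that fit is not given here, so these 16 cannot be set against it.

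Against dNLS monogenic mice, of the same line but without tTA, dNLS bigenic mice had 16 of 45 members higher and 0 lower, where 14.3% of all genes were called, 7.76% as higher and 6.54% as lower. Among members of mean level 12 or more 14 of 34 were higher, beside 7.66% higher and 19.3% lower among other genes this bright. The large subunit gave 10 and the small subunit 6. Rpl14 differed by 1.12 ± 0.09 (adjusted p = 4.44e-07), Rplp0 by 0.62 ± 0.10 (adjusted p = 2.85e-04), Rpsa by 0.50 ± 0.05 (adjusted p = 1.65e-06), Rpl8 by 0.38 ± 0.03 (adjusted p = 2.33e-07), Rps26 by 0.36 ± 0.07 (adjusted p = 0.00156) and Rpl11 by 0.28 ± 0.05 (adjusted p = 7.89e-04). Rps19 read 13.01 to 13.23 in dNLS bigenic and 12.17 to 12.71 in dNLS monogenic mice without overlap, at 0.61 ± 0.26, and did not pass (adjusted p = 0.148). Groups did not overlap for 25 members that were higher (10.8% of all genes) and for Rps29, which was lower (9% of all genes). The call of Rpl19 was lost whichever mouse of either group was left out, and that of Rps27 under most such omissions. The Rps28 call was lost without dNLS bigenic 1 or 3 or dNLS monogenic 1 or 4. The count was 7 with arrays centred on their medians and 26 without nontransgenic 4 and 6, which are in neither group. Shares over all genes in these fits are not given here. All comparisons share one spread, and those with dNLS bigenic mice share these 5 arrays.

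WT bigenic mice had 0 of 45 members past the threshold against nontransgenic mice by limma, and 9 at an unadjusted p under 0.05, all higher. At that unadjusted level stood 2292 of all 12393 genes, 937 of them higher. Past the adjusted threshold were 2.23% of all genes, 0.686% as higher and 1.54% as lower. Of other genes of mean level 12 or more 0.721% were higher and 4.05% lower. The median member change was 0.05. Rps9 averaged 13.37 ± 0.07 (SD, n = 4) in WT bigenic and 12.93 ± 0.38 (n = 8) in nontransgenic mice (adjusted p = 0.146), and Rps26 12.44 ± 0.05 and 12.22 ± 0.11 (adjusted p = 0.0938). Rps3 and Rps9 did not overlap between the groups, with WT bigenic mice higher, as held for 1.92% of all genes, while 3.33% were lower without overlap. Without nontransgenic 4 and 6 Rps3, Rps9 and Rps26 passed, and without nontransgenic 4 alone Rps26 did (adjusted p = 0.0454). The share over all genes without both arrays is not given here. Centred on medians over all probe sets, where the median of all genes shifted to -0.11, 1 member was higher and 6 lower, 4 of these at the lowest deposited value.

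dNLS monogenic mice had 0 of 45 members past the threshold against nontransgenic mice by limma, as 0% of all genes passed. At an unadjusted p under 0.05 stood 0 members and 196 of all 12393 genes. The median member change was 0.01, and the groups overlapped for every one of the 45 members, while 0.0323% of all genes were higher and 0.0323% lower without overlap. Rplp0 averaged 12.55 ± 0.08 (SD, n = 4) in dNLS monogenic and 12.50 ± 0.19 (n = 8) in nontransgenic mice, and Rpsa 13.60 ± 0.06 and 13.63 ± 0.07.

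Other genes of the pathway were counted in the same way in dNLS bigenic against nontransgenic mice, where 10.8% of all genes rose and 11.5% fell. Fau, which encodes a ubiquitin-like protein fused to the small-subunit protein Rps30, rose by 0.40 ± 0.06 (adjusted p = 8.31e-05). Of 15 other genes known for TOP messages, 3 rose, 3 fell and 9 did not pass, with a median change of 0.10. Pabpc1, the poly(A)-binding protein, rose by 0.49 ± 0.15 (adjusted p = 0.0313) and Gas5, a host gene of small nucleolar RNAs, by 0.45 ± 0.10 (adjusted p = 0.00307). Nap1l1, a histone chaperone, fell by 0.37 ± 0.03 (adjusted p = 3.15e-08) and Eef1a1, an elongation factor, by 0.13 ± 0.02 (adjusted p = 2.41e-05). Ribosome assembly genes numbered 60, of which 25 rose and 4 fell, with a median of 0.27. Nop14, of the small-subunit processome, rose by 1.26 ± 0.17 (adjusted p = 2.80e-05), and Utp18, of the same complex, fell by 1.67 ± 0.53 (adjusted p = 0.0304). Nucleolin (Ncl) rose by 0.37 ± 0.04 (adjusted p = 6.92e-06). Of 13 genes of RNA polymerase I and its factors, 1 rose and 0 fell, a share (1 of 13) no larger than that over all genes. It was Taf1a, at 0.99 ± 0.15 (adjusted p = 1.28e-04). Of 10 regulators of ribosomal protein synthesis, 2 rose. Larp1, which binds TOP messages, was higher by 0.61 ± 0.10 (adjusted p = 1.97e-04) and Max, the partner of Myc, by 1.86 ± 0.23 (adjusted p = 1.52e-05). Among 5 paralogs of subunit genes Rpl7l1 rose by 0.38 ± 0.11 (adjusted p = 0.0226).

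Against WT bigenic mice, 11 assembly genes were higher in dNLS bigenic mice and 1 was lower of 60, where 6.24% of all genes were higher and 4.53% lower. Of 10 regulators 3 were higher, Eif4ebp1, an inhibitor of translation initiation, by 2.33 ± 0.67 (adjusted p = 0.0325), Max by 1.45 ± 0.28 (adjusted p = 0.00255) and Larp1 by 0.45 ± 0.12 (adjusted p = 0.0203). Taf1a (0.82) was higher, and Nap1l1 (-0.27) and Eef1a1 (-0.12) lower. Of the 15 other genes with TOP messages, 0 were higher and 2 lower. WT bigenic mice also had 5 of 60 assembly genes higher and 0 lower than nontransgenic mice, where 0.686% of all genes were higher and 1.54% lower. In dNLS monogenic against nontransgenic mice 0 assembly genes passed.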

How the data were processed

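The authors deposited 1 table of normalized values for 22690 probe sets in 21 samples. They are taken as log2 levels from their range, the base not being named in the deposited table or labels. Partek is named in the submitters' processing notes, and how background was corrected, arrays normalized and probes summarized is not given in the sources used here. Per the labels' protocols, total RNA was primed at the poly(A) tail and amplified in 1 cycle. Probe sets were named through the platform annotation. Of them 64 were controls, 20380 had 1 symbol, 691 several and 1555 none. Each of 12393 genes was read by its probe set of highest mean, and no filter on dim genes was applied. A linear model of group and labelled sex was fitted over all genes and arrays with limma 3.58.1 in R 4.3.3 (eBayes with an intensity trend), with Benjamini-Hochberg adjustment and a threshold of 0.05. Promoter searches, permutations and plots used Python 3.11.15. The fit was tested on simulated data. The number of arrays limits the precision, and p-values measure the spread between these mice, 1 array each.

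Members and lists were chosen with earlier results of these data known. Members given with array values were those with up to 6 largest increases and decreases past the threshold in a comparison, the 3 brightest and the 3 dimmest, and Rpl14, Rps19, Rplp0, Rpl11, Rps6, Rpsa and Rplp2. In related lists the 2 largest changes past the threshold were named. Ncl, Nap1l1, Eef1a1, Larp1 against WT bigenic mice, Rpl12, Rpl36, Rplp1, Rpl15, Rpl5, Rpl30, Rps3 and Rps25 were named after their values were seen. Alternatives were other centring, quantile normalization, a filter on dim genes, no trend, no or Xist-based sex, other probe sets, a beta-actin covariate, fewer samples and each mouse left out.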

Additional observations from a re-analysis of the deposited data

Results flagged for a closer look

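Within groups of 4 to 8 arrays, 8 values stood apart from the others of their group by Dixon's test, out of 72 groups over 18 items. The items were the named members of mean level above 3 and the mean of the bright members of each subunit. Chance gives about 1 in 20. Nontransgenic 6 held 3 of them, low in Rplp0 (12.10, next 12.44), high in Rps6 (9.14, next 8.58) and high in Rpl41 (14.40, next 14.35). Nontransgenic 7 was low in Rpl8 (12.39, next 12.49). In dNLS bigenic 5, the one female of its group, Rplp2 was high (14.31, next 14.25) and Rps29 low (13.81, next 14.01). Rpl11 was low in dNLS monogenic 2 (13.34, next 13.41) and Rps9 high in WT bigenic 3 (13.48, next 13.34).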

How the results depend on the processing

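No called member among those given with array values changed direction under the alternatives run. Medians near 0 did change sign. For dNLS monogenic against nontransgenic mice the median of 0.01 became -0.0347 with arrays centred over all probe sets, -0.0046 with the beta-actin covariate and -0.006 without nontransgenic 4 and 6, and for WT bigenic against nontransgenic mice the change of sign is given below. The count of members called in dNLS bigenic against nontransgenic mice was 25 and became 16 with only the 2 groups compared and 42 of 72 genes with shared probe sets added. It lay between 21 and 26 with 1 mouse left out. The median member change there was 0.10 with arrays centred on medians over all probe sets. Against WT bigenic mice the count of 7 became 16 with the beta-actin covariate, 17 without nontransgenic 4 and 6, 15 with only the 2 groups compared and 11 with shared probe sets. It lay between 4 (without WT bigenic 1) and 8 with 1 mouse left out. Against dNLS monogenic mice the count of 16 became 7 with arrays centred on their medians over genes, 29 with the covariate, 27 without nontransgenic 4 and 6 and 28 with shared probe sets, and lay between 13 and 15 with 1 mouse left out. For WT bigenic against nontransgenic mice the count of 0 became 3 without nontransgenic 4 and 6, 7 with medians over all probe sets (median change -0.059), 2 with shared probe sets (Rpl36 and Rps25) and 1 among genes of mean level 12 or more (Rps26), and lay between 0 and 1 with 1 mouse left out. The cause of these shifts was not tested, except that shared probe sets add genes. dNLS monogenic against nontransgenic mice kept a member count of 0 throughout. With 1 mouse left out, calls over all genes shifted as well. They numbered 2365 to 3316 in dNLS bigenic against nontransgenic mice (2759 in the main fit) and 817 to 1301 against WT bigenic mice (1334). Against dNLS monogenic mice they numbered 1373 to 1683 (1773), and in WT bigenic against nontransgenic mice 37 to 579 (276). All-gene shares under the other alternatives are not given here. Centring over all probe sets, shared probe sets and the restriction to bright genes were chosen after seeing the data. No paired analysis was made because the labels do not pair mice between groups.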
